A study of Mus musculus with 16 samples.

Results

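The noncoding RNAs described here are 7 genes of a sperm RNA-sequencing table, taken by name from its 24062 gene rows: Malat1, Neat1, Gas5, Snhg1, Snhg12, Rmrp and Rpph1. Of them, 6 passed edgeR's filter on low counts, which kept 13149 genes. The libraries came from 8 male mice fed a high-fat, high-calorie diet (HFD), a modified D12492, and from 8 males fed the matching control diet (CD). All males were put on their diet at 3 weeks of age and fed it for 9 weeks, and motile sperm was then isolated. The labels give no strain, genotype or other treatment. The comparison asks whether the diet of the male goes with a difference in the RNA of his sperm, and all values below are from those 16 libraries.

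Malat1 and Neat1 are long RNAs that stay in the nucleus of somatic cells. Malat1 gathers in nuclear speckles, which store splicing factors, and Neat1 is the scaffold around which paraspeckles form. Gas5, Snhg1 and Snhg12 are host genes: their introns hold small nucleolar RNAs (snoRNAs), which guide chemical modification of ribosomal and other RNAs, and their spliced transcripts are not thought to act through a protein. Rpph1 is the catalytic RNA of RNase P, which trims the front end of precursor tRNAs and also cuts the tail of Malat1. Rmrp is the RNA of the related enzyme RNase MRP, which acts in the maturation of ribosomal RNA. Sperm nuclei are highly condensed and are known to be largely silent in transcription.

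Malat1 and Neat1 are neighbours on mouse chromosome 19 in GENCODE M21, on the GRCm38 assembly that mm10 denotes. Malat1 spans 5795690 to 5802672 and Neat1 5824708 to 5845478, both on the minus strand with 22035 bases between them. Both are annotated as long intergenic RNAs without an intron when all their transcripts are merged. Snhg1 lies on the same chromosome at 8723475 to 8726443, on the plus strand. Gas5 lies on chromosome 1 at 161034422 to 161038539 and Snhg12 on chromosome 4 at 132308623 to 132311024, both on the plus strand. The host genes hold 9 snoRNA loci in Gas5, 8 in Snhg1 and 4 in Snhg12. Rmrp lies on chromosome 4 at 43492783 to 43493063 and Rpph1 on chromosome 14 at 50807449 to 50807767, both on the minus strand.

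The starts of the host genes are shown because these genes share the exact letters TATA there, which Malat1 lacks. Each line gives 100 bases from RefSeq on GRCm38.p6, 50 before the annotated start and 50 from it on, 5′ to 3′ along the gene. The RefSeq starts are not all those of the GENCODE spans above. For Gas5 and Snhg12 the whole window, with its TATA, lies inside the GENCODE span of the gene. Capitals mark TATA, which was searched between 40 and 20 bases before the start and reads the same on both strands. Of 4 genes with an entry, Gas5 has a pair of starts, and its downstream start is the one shown.
Gas5, chr1:161035116-161035215, plus strand: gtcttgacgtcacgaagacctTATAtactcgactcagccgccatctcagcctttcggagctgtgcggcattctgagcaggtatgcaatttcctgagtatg
Snhg1, chr19:8723437-8723536, plus strand: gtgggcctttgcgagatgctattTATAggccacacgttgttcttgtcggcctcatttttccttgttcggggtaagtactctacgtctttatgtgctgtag
Snhg12, chr4:132308628-132308727, plus strand: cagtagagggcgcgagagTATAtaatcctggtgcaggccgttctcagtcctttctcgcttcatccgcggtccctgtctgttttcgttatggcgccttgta
Malat1, chr19:5802623-5802722, minus strand: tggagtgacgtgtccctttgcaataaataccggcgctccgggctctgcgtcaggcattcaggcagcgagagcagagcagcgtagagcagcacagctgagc
TATA began 29 bases before the start in Gas5, 27 in Snhg1 and 32 in Snhg12, and was not in this window of Malat1 or of the upstream Gas5 start. Of all 32851 entries, 5.34% hold it there. A match is a description of the letters and no evidence of a bound factor. Other A- and T-rich stretches, such as aataaata in the Malat1 window, were not searched for.

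Rmrp, whole, and the first 300 bases of Rpph1 are shown because their reads can be confused with those of another gene. The sequences are GENCODE M21 transcripts on GRCm38, written as DNA, and capitals mark the bases that no exon of a gene of another name covers. GENCODE holds Rmrp as 2 entries, a long intergenic RNA and a ribozyme, which together span 281 bases. The 271 bases of the ribozyme entry are shown, and overlap between the 2 entries is not marked.
Rmrp, chr4:43492788-43493058, minus strand: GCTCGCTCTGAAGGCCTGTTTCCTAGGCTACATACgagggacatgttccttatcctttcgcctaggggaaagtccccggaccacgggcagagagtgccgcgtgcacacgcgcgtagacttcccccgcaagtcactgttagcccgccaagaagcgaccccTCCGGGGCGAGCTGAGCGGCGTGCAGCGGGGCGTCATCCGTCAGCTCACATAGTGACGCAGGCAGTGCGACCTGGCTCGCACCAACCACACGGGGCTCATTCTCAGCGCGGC
Rpph1, chr14:50807468-50807767, minus strand: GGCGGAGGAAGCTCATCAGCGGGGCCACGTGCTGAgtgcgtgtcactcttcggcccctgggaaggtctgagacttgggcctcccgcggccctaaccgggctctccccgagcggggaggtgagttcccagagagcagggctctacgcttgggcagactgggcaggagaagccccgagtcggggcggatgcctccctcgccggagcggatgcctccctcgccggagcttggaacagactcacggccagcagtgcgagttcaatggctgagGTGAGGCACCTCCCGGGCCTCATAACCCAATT
The ribozyme entry of Rmrp has 271 bases, of which 124 are shared with the protein-coding gene Ccdc107 on the opposite strand. Rpph1 has 319 bases, of which 233 are shared with Ccnb1ip1 on its own strand. Whether counting used strand is not given in the sources used here. Without strand, reads over the lower-case bases of Rmrp cannot be told from those of Ccdc107.

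The preparations held RNA of sperm and of other cells. Reads counted in genes numbered 1882555 to 5153818 per HFD library, with HFD 4 the shallowest, and 3172721 to 7783981 per CD library. Markers of late spermatids and sperm, 30 genes such as the protamines, summed to 3244 to 58328 CPM (counts scaled to the same library total, here of all genes) in HFD and 2565 to 14065 in CD. Markers of the epithelium of the epididymal duct, 30 genes in the table, summed to 12402 to 86433 CPM in HFD and 40152 to 92998 CPM in CD. Leukocyte markers, 20 genes, summed to 1731 to 5608 CPM in HFD and 2106 to 4759 CPM in CD, and 16 markers of stroma, endothelium and muscle to 519 to 1449 and 375 to 1105 CPM. Sertoli cell markers, 12 genes, summed to 361 to 8240 CPM in HFD and 1093 to 10986 CPM in CD, with Amh and Fshr at 0 in every library. Their list holds Clu, which the epididymis also makes. The 7 erythroid markers in the table summed to 27.2 to 200.3 CPM in HFD and 16.3 to 90.0 CPM in CD, with the globin genes Hbb-bs, Hbb-bt, Hba-a1 and Hba-a2 at 0, and 8 Leydig cell markers to 26.0 to 124 and 46.9 to 146 CPM. HFD 4 and HFD 8 stood apart: they held 172 and 470.3 counts of sperm markers per 100 of epididymal markers, against 2.76 to 29.3 in the other 14 libraries. The 24 meiotic germ cell markers reached 4015 CPM in HFD 4 and 3323 in HFD 8, against 271 to 1207 elsewhere. The same libraries had the smallest share of reads in genes, 8.02% and 9.16% against 10.3% to 20.1%, and the largest in no annotated feature, 76.1% and 74.96% against 58.0% to 67.9%. They also had the highest stroma sums, 1449 and 1304 CPM against at most 1105, and the lowest sums of the Sertoli list, 381 and 361 CPM against at least 1093. Diet differences of the 7 RNAs are therefore given with and without these 2 libraries. In such mixed samples, fewer cells of a type and less RNA per cell cannot be told apart.

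Malat1 had 4763 to 34034 counts in HFD libraries and 18167 to 34373 in CD libraries. Its CPM, scaled with TMM factors as are all single-gene CPM below, had a lowest value of 1661, a median of 5438 and a highest of 8744 in HFD libraries. In CD libraries these were 4547, 6619 and 9424 CPM. The lowest library of all was HFD 8, followed by HFD 4 at 3929 CPM, and every other library lay at 4412 CPM or more. Without HFD 4 and HFD 8 the HFD values lay inside the CD range except HFD 3, which stood just under it at 4412 CPM. As a share of gene counts, Malat1 made up 0.156% in HFD 8 (95% Wilson interval 0.151% to 0.160%) and 0.946% in CD 7 (0.936% to 0.956%). Such intervals cover counting error only, since amplified copies of a molecule are counted too.

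Neat1 was detected in all libraries. It had 83.7 CPM at the lowest, 150 at the median and 226 at the highest in HFD, against 46.7, 154 and 224 CPM in CD. HFD 8 and HFD 7 held the least among HFD libraries and CD 5 the least of all. HFD 4 stood at 99.98 CPM. The ratio of Neat1 to Malat1 counts does not depend on how libraries are scaled. There were 1.58 to 5.04 Neat1 counts per 100 of Malat1 in HFD libraries and 0.934 to 2.78 in CD libraries, with the highest value in HFD 8 and the next, 4.44, in HFD 3. The other HFD libraries lay within the CD range, with HFD 4 at 2.55.

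**Figure D1:**
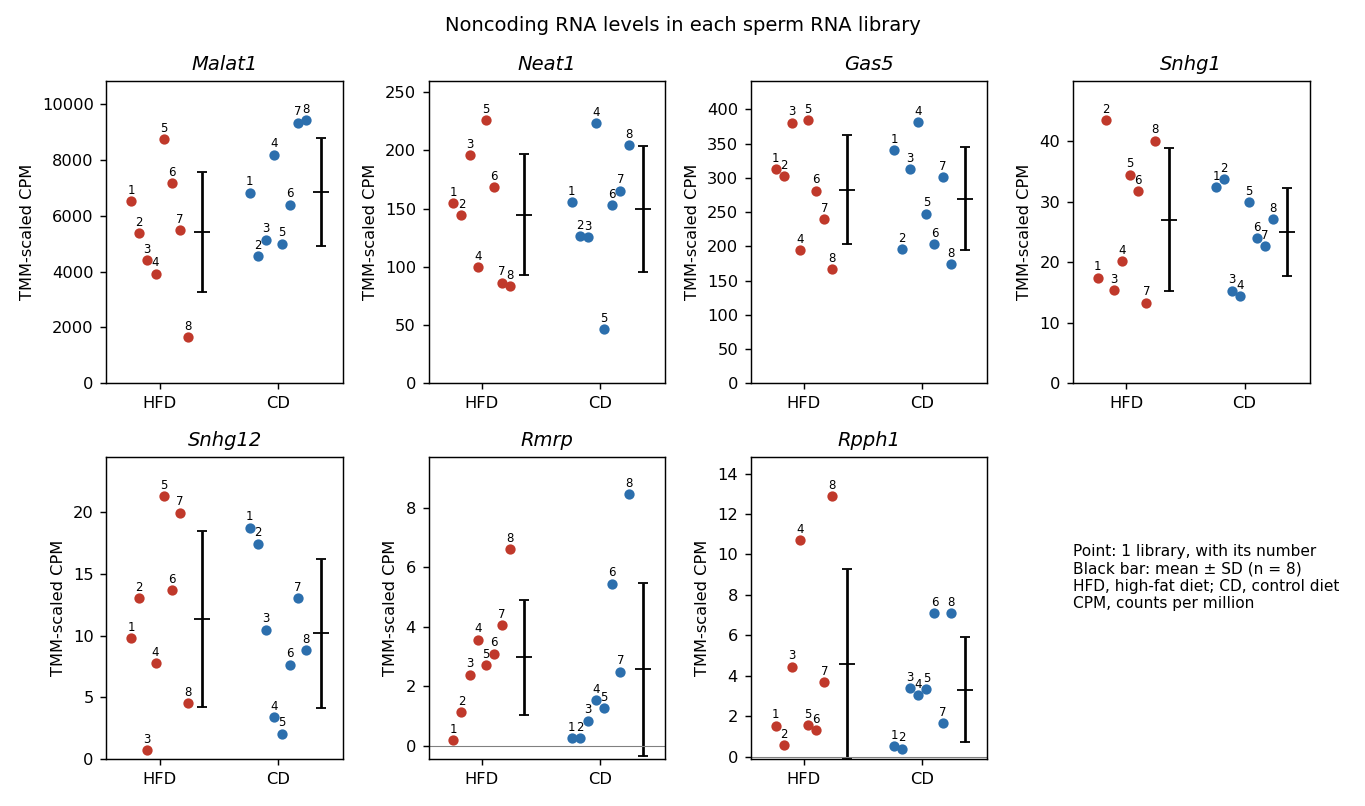
TMM-scaled CPM (y axis, linear from 0, extended below 0 where an SD bar reaches there) of each RNA by diet, with 1 numbered point per library and the mean ± SD of 8 libraries in black. HFD 8 is the lowest Malat1 and Gas5 library, and HFD 4 and HFD 8 are the highest Rpph1 libraries at 10.7 and 12.9 CPM.

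Gas5 had 327 to 1632 counts in HFD libraries and 514 to 1480 in CD libraries. It is a growth-arrest transcript whose spliced form is degraded when translation is active. HFD libraries held 167 CPM at the lowest, 292 at the median and 384 at the highest, and CD libraries 174, 274 and 381 CPM. The lowest libraries were HFD 8 with 167 CPM, CD 8 with 174 and HFD 4 with 195. HFD 5, CD 4 and HFD 3 were the highest, so both ends of the range held libraries of either diet.

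Snhg1 and Snhg12 are host genes of other snoRNA sets. Snhg1 had 13.3 CPM at the lowest, 26.0 at the median and 43.4 at the highest in HFD, against 14.4, 25.5 and 33.7 CPM in CD. HFD 8, low in Malat1 and Gas5, held 40.1 CPM of Snhg1, more than every other library but HFD 2, while HFD 4 held 20.2. Snhg12 had 0.684, 11.4 and 21.3 CPM in HFD and 2.04, 9.64 and 18.8 CPM in CD. Its lowest library, HFD 3, rested on 2 counts (exact Poisson 95% interval 0.242 to 7.22) and its highest, HFD 5, on 55 (41.4 to 71.6). These intervals are far apart, although both libraries are of the same diet and of like depth.

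Of the snoRNAs inside the 3 host genes, 6 have a row in the table, and 0 of them passed the filter on low counts. All 6 lie within annotated exon bases of their host on the same strand, as some host transcripts keep introns. How reads over such shared bases were counted is not stated, so these rows may miss reads of the snoRNAs. Snord47 of Gas5 totalled 11 counts over the HFD libraries and 18 over the CD libraries, where Gas5 itself totalled 7875 and 8470. Snord22 of Snhg1 totalled 35 in HFD and 20 in CD, against 763 and 849 for its host. In Snhg12, Snora44 totalled 21 and 12, Snora61 20 and 15, Snord99 12 and 21, and Snora16a 3 and 5, against 310 and 362 counts of the host. Of all 119 rows named as a snoRNA or scaRNA, 3 passed the filter, and together they summed to 23.5 to 51.0 CPM of gene counts in HFD and 22.7 to 54.1 CPM in CD.

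Rmrp and Rpph1 were close to the lower limit of detection. Rmrp had 1 to 19 counts in HFD libraries and 1 to 25 in CD libraries, and was the single gene of the 7 that did not pass the filter. Its CPM was 0.192 at the lowest, 2.91 at the median and 6.62 at the highest in HFD, against 0.257, 1.40 and 8.45 CPM in CD. Rpph1 had 3 to 37 counts in HFD and 2 to 26 in CD, with 0.566, 2.62 and 12.9 CPM in HFD and 0.397, 3.19 and 7.10 CPM in CD. The Rpph1 row was highest in HFD 8 with 37 counts (exact Poisson 95% interval 26.1 to 51.0), next in HFD 4 with 10.7 CPM, and then in CD 8 and CD 6 with 7.10 and 7.09. Rmrp was highest in CD 8, HFD 8 and CD 6, with 25, 19 and 20 counts. The 4 libraries highest in Rpph1, HFD 8, HFD 4, CD 8 and CD 6, were the 4 with the smallest share of reads in genes, 8.02% to 10.8% against 11.3% to 20.1% elsewhere. With CD 5 they were also the 5 with the most sperm marker counts per epididymal marker count. The part of either in these levels was not tested. The overlapping gene Ccdc107 had 27.2 ± 10.9 CPM for HFD, against 29.1 ± 6.70 for CD (n = 8 each, SD). It stood at 7.32 CPM in HFD 8, 23.2 in HFD 4 and 20.7 to 43.6 in the remaining libraries. The last include CD 8 and CD 6, where Rmrp was also high. The part of Ccdc107 reads in the Rmrp counts was not tested. Ccnb1ip1, which shares most of the Rpph1 exon, had at most 3 counts in any HFD library and 1 in any CD library.

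To compare levels between the 7 RNAs, CPM were divided by kilobases of merged exons (CPM per kb). Malat1 averaged 776 ± 310 CPM per kb in HFD and 983 ± 279 in CD (n = 8 each, SD). Gas5 followed with 75.2 ± 21.1 in HFD and 71.6 ± 20.1 in CD, and was below Malat1 in all 16 libraries, by 5.37 to 29.2 times. Rpph1 averaged 14.4 ± 14.7 in HFD and 10.4 ± 8.19 in CD, and was below Gas5 in all 16, by 1.10 to 56.2 times. Of the 319 bases used for Rpph1, 233 are shared with Ccnb1ip1. How reads over them were counted is not stated, so this order is uncertain. Below Gas5 the order was not stable. Rpph1 exceeded Rmrp in 10 of 16 libraries, Rmrp exceeded Snhg1 in 9, Snhg1 exceeded Neat1 in 10 and Neat1 exceeded Snhg12 in 13. Neat1 averaged 6.98 ± 2.51 in HFD and 7.23 ± 2.61 in CD over 20771 bases, which include its long isoform. Over the 3004 bases of its short isoform, a length added after the data were seen, these became 48.2 ± 17.3 and 49.97 ± 18.0. That placed Neat1 3rd by mean. By library its rank was then 2 to 4 and that of Gas5 2 to 3, so Gas5 was not 2nd in every library. These lengths may not be those counted, since the sources used here do not name the annotation.

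A diet difference was found for none of the 7 RNAs. On simulated counts the test used, edgeR's quasi-likelihood test, called 4 of 50 genes altered 2-fold, so it can miss differences of that size. With this test over all genes, 0 of the 6 tested RNAs had an adjusted p under 0.05. Over all 13149 genes the share past that threshold was 0%, with 0 genes, while 11.3% had an unadjusted p under 0.05 and none of the 6 RNAs did. Those 1482 genes became 516 without HFD 4 and 689 without HFD 8. DESeq2 called 1 gene, Apoh, which encodes a plasma glycoprotein and is not of these 7. The 6 RNAs had a median log2 fold change of 0.09, against -0.0042 for all genes tested. Of the 6, 2 had negative values, beside 50.4% of all genes, and without HFD 4 and HFD 8 2 were negative, beside 50.8%.

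Mean Malat1 was 5416 ± 2163 CPM for HFD, against 6863 ± 1945 for CD (n = 8 each, SD). The edgeR log2 fold change was -0.34 ± 0.30 (SE, adjusted p = 0.707), and -0.12 ± 0.19 without HFD 4 and HFD 8. Mean Neat1 was 145 ± 52.0 CPM for HFD, against 150.1 ± 54.1 for CD, with a fitted log2 fold change of -0.05 ± 0.28 (SE, edgeR adjusted p = 0.959). It was 0.12 without the same 2 libraries, and turned positive, to at most 0.08, without any 1 of HFD 4, HFD 7, HFD 8, CD 4 and CD 8. HFD 4 and HFD 8 differed in makeup from the other libraries, and the part of makeup in these values was not tested.

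Among the host genes, mean Gas5 was 283 ± 79.5 CPM for HFD, against 269 ± 75.4 for CD (n = 8 each, SD). Its log2 fold change was 0.07 ± 0.22 (SE, edgeR adjusted p = 0.920), and 0.24 ± 0.18 without HFD 4 and HFD 8. Mean Snhg1 was 27.0 ± 11.8 CPM for HFD, against 24.9 ± 7.29 for CD, with a log2 difference of 0.12 ± 0.29 (SE, edgeR adjusted p = 0.899), and 0.07 without HFD 4 and HFD 8. Mean Snhg12 was 11.3 ± 7.14 CPM for HFD, against 10.2 ± 6.04 for CD, with 0.15 ± 0.52 (SE, edgeR adjusted p = 0.931), and 0.36 without these 2 libraries. Direction turned when 1 library was left out: to -0.0078 for Gas5 without HFD 5, to -0.02 for Snhg1 without HFD 2, and to -0.04 and -0.02 for Snhg12 without HFD 5 and without HFD 7.

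For the RNase RNAs the sign depended on single libraries. Mean Rpph1 was 4.59 ± 4.68 CPM for HFD, against 3.32 ± 2.61 for CD (n = 8 each, SD), and its log2 fold change was 0.44 ± 0.67 (SE, edgeR adjusted p = 0.830). It was -0.03 without HFD 8 and -0.61 ± 0.65 (SE) without HFD 4 and HFD 8. Mean Rmrp was 2.97 ± 1.94 CPM for HFD, against 2.57 ± 2.91 for CD. It did not pass the filter, so its test comes from the edgeR fit of all 20408 genes with a count. That fit gave 0.18 ± 0.71 (SE, edgeR adjusted p = 0.939), which was -0.09 without HFD 8, -0.0018 without CD 2 and -0.19 without HFD 4 and HFD 8.

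**Figure D2:**
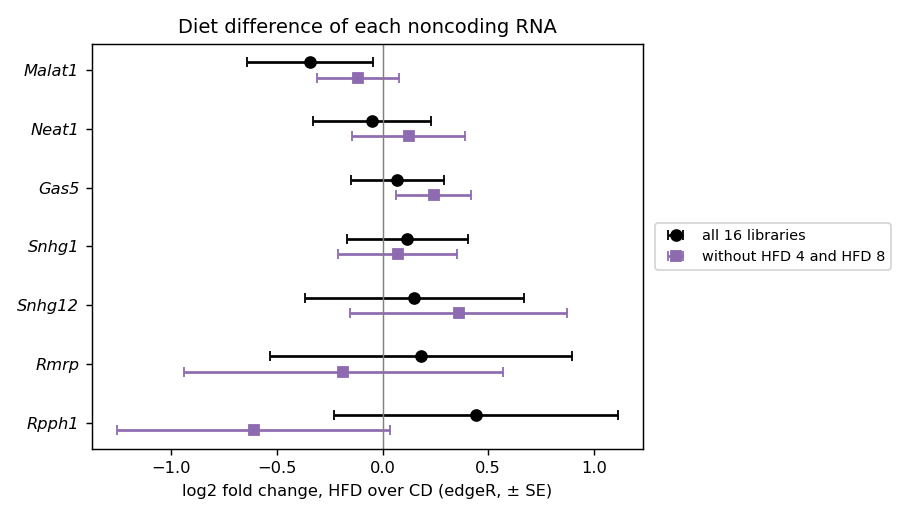
Log2 fold change, HFD over CD, of each RNA (x axis) with its SE from edgeR, for all 16 libraries (black circles) and without HFD 4 and HFD 8 (violet squares). Without the 2 libraries Malat1 moves nearer to 0, at -0.12, and Neat1, Rmrp and Rpph1 change sign.

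In the 2 libraries rich in sperm markers, the 7 RNAs stood on both sides of the median of the other libraries. In HFD 8 Malat1 was at 0.257 times the median of those 14, Snhg12 at 0.386, Neat1 at 0.538 and Gas5 at 0.553, while Snhg1 was at 1.57, Rmrp at 3.38 and Rpph1 at 5.47 times. In HFD 4 Malat1 was at 0.607, Neat1 at 0.643, Gas5 at 0.646, Snhg12 at 0.658 and Snhg1 at 0.793 times that median, while Rmrp was at 1.82 and Rpph1 at 4.54 times. There were 0.777 Rpph1 counts per 100 of Malat1 in HFD 8 and 0.273 in HFD 4, against 0.00752 to 0.111 in the other 14 libraries.

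**Figure D3:**
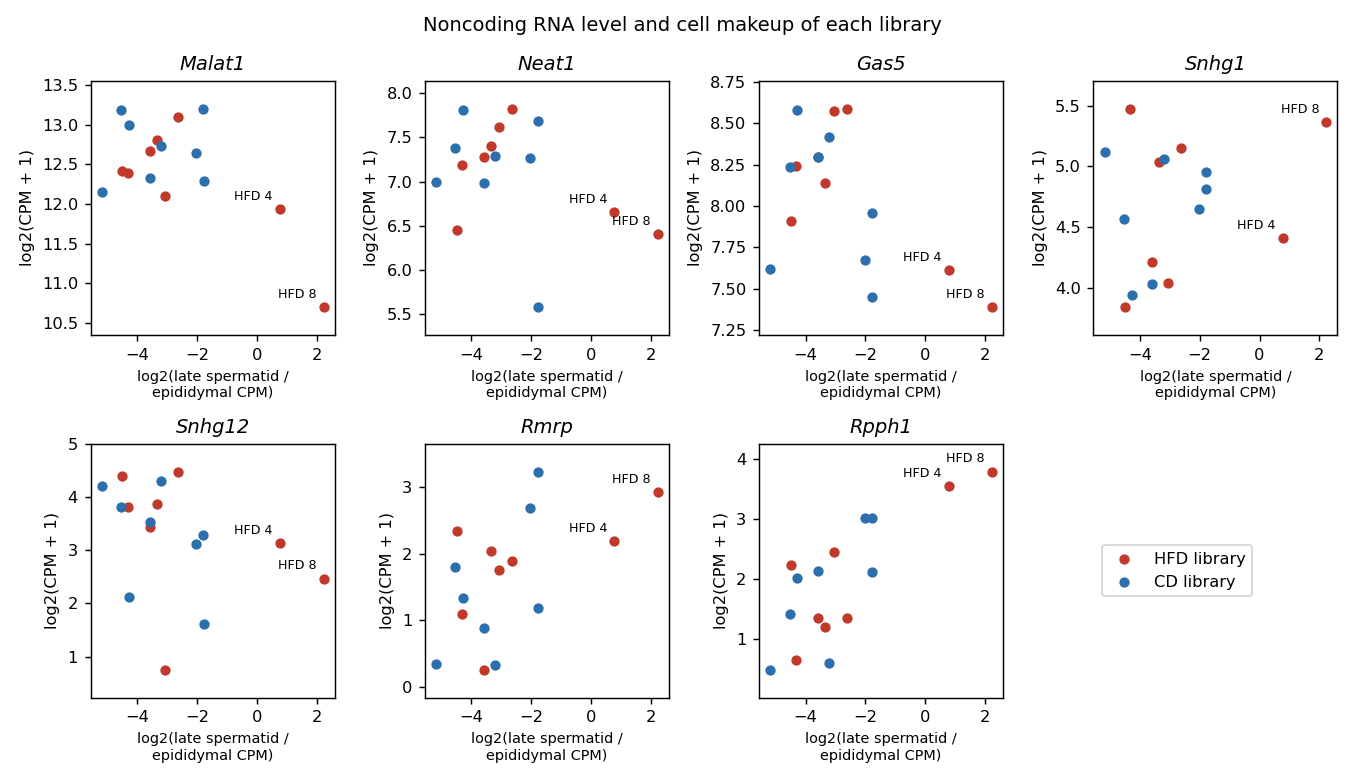
Level of each RNA as log2(CPM + 1) (y axis) against the log2 ratio of summed late spermatid to summed epididymal markers (x axis), with 1 point per library. HFD 4 and HFD 8 lie far to the right at ratios of 0.78 and 2.23, low in Malat1 and high in Rpph1, and the other 14 libraries lie between -5.18 and -1.77.

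Relations of the 7 RNAs with each other and with the ratio of sperm to epididymal markers were computed over the other 14 libraries. They used log2(CPM + 1). These relations were not planned, and the use of each diet alone was also added with the data known. None of the 28 relations passed Benjamini-Hochberg adjustment. Rmrp and Rpph1 had the strongest, with a Pearson r of 0.72 (permutation p = 0.00402, adjusted p = 0.113, n = 14) and a Spearman rho of 0.66 (permutation p = 0.0128, adjusted p = 0.179). Its r was 0.50 without CD 6 and CD 8, 0.45 in the 6 HFD libraries and 0.85 in the 8 CD libraries. Rpph1 and the marker ratio had an r of 0.59 (permutation p = 0.029, adjusted p = 0.294, n = 14) and a rho of 0.49 (permutation p = 0.0757, adjusted p = 0.410), with r at 0.49 without CD 2 and CD 5, 0.10 in HFD and 0.71 in CD. Malat1 and Neat1 had an r of 0.55 (permutation p = 0.0315, adjusted p = 0.294, n = 14) and a rho of 0.66 (permutation p = 0.0122, adjusted p = 0.179), with r at 0.61 without HFD 7 and CD 5, 0.36 in HFD and 0.69 in CD. Snhg1 and Rpph1 had a negative r of -0.54 (permutation p = 0.0488, adjusted p = 0.342, n = 14) and a rho of -0.60 (permutation p = 0.025, adjusted p = 0.234), with r at -0.78 without CD 6 and CD 8, -0.87 in HFD and -0.38 in CD. Malat1 and the marker ratio gave an r of 0.19 (permutation p = 0.520, adjusted p = 0.833, n = 14). Their rho was 0.09 (permutation p = 0.763, adjusted p = 0.959). Their r was 0.19 without CD 2 and CD 5, 0.46 in HFD and 0.08 in CD. The libraries left out of each relation were those farthest from the median of the quantity named second.

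The RNAs differed in how far libraries of the same diet spread. The pooled SD of log2 CPM within diets was 0.42 for Gas5, 0.56 for Snhg1, 0.60 for Malat1 and 0.62 for Neat1, below the median of 0.72 over all genes tested. Snhg12 and Rpph1 spread more widely, with 1.20 and 1.23, higher than 85.5% and 86.7% of tested genes. Among genes within a factor of 2 of the same mean CPM, a smaller SD was found in 79.2% for Snhg12, 79.8% for Rpph1, 60.4% for Neat1, 36.4% for Snhg1, 34.0% for Gas5 and, of 15 genes, 6.67% for Malat1. Without HFD 4 and HFD 8 the median of all genes was 0.497, with Gas5 at 0.36 and Malat1 at 0.39 below it and Snhg1 at 0.57 and Neat1 at 0.61 above it.

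Genes whose log2 CPM followed each RNA most closely over the 16 libraries are given as a description, with Pearson's r. All points share library, depth and makeup, and HFD 4 and HFD 8 weigh in each value. For Malat1 these were Prrc2c, an RNA-binding protein gene, with r = 0.92, Gdap10 with 0.92 and Rasgrf1, a Ras exchange factor gene, with 0.91, and without HFD 4 and HFD 8 (n = 14) their r was 0.74, 0.74 and 0.67. For the genes named with the other 5 RNAs, r without these 2 libraries lay between 0.73 and 0.93. Of all other tested genes, 22.4% had an r above 0.5 with Malat1. For Neat1 they were the transporter gene Slc38a10 with 0.86, the zinc finger gene Zkscan3 with 0.85 and the translation factor gene Eif2b3 with 0.84. Gas5 was followed by Acss1, a mitochondrial acetyl-CoA synthetase gene, with 0.90, Emp2 with 0.85 and Zfp369 with 0.83, and Acss1 also ranked 1st without HFD 4 and HFD 8 at 0.87. Snhg1 was followed by Cyth3 with 0.76, the transcription coactivator gene Sub1 with 0.75 and Rnf7 with 0.74. For Snhg12 they were Snapc1, a subunit of the complex that activates small nuclear RNA genes, with 0.88, Ccpg1 with 0.86 and Serpine3 with 0.80. Rpph1 was followed by the Mediator subunit gene Med16 with 0.95, the kinase gene Sik2 with 0.94 and the autophagy gene Map1lc3a with 0.92. Med16, at 34.0 ± 15.4 CPM for HFD, against 34.1 ± 13.1 for CD (n = 8 each, SD), kept an r of 0.93 with Rpph1 without HFD 4 and HFD 8. By Spearman's rho the ranks of the named genes ran from 1st, for Acss1, Rnf7 and Sik2, to 145th for Zkscan3. Serpine3, at a mean of 2.19 CPM for HFD and 2.20 for CD, ranked 31st by rho.

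Genes that act with these RNAs were read from 10 lists, and of 100 tested genes in them 0 passed the threshold in either direction with edgeR, beside 0% of all genes. At an unadjusted p under 0.05 there were 2 of the 100, beside 11.3% of all genes: Znhit3 of the box C/D list and Smg9 of nonsense-mediated decay, named here for that p. Their log2 fold changes of 0.70 and 0.79 had an edgeR adjusted p of 0.434 each, and were 0.20 and 0.24 without HFD 4 and HFD 8. List medians without these 2 libraries are over the same genes as with them. Of 16 tested proteins of nuclear speckles, where Malat1 gathers, 13 had negative log2 fold changes and 3 positive, with a median of -0.12, where 50.4% of all genes were negative. Without HFD 4 and HFD 8, 11 of the 16 were negative, beside 50.8% of all genes, and the median was -0.03. The scaffold protein genes Srrm2 and Srrm1 had 911 ± 245 and 347 ± 145 CPM for HFD, against 1103 ± 159 and 483 ± 61.3 for CD (n = 8 each, SD). Of 13 tested paraspeckle proteins, 8 were negative and 5 positive, with a median of -0.07 that was 0.0075 without HFD 4 and HFD 8. Hnrnpk, for example, had 209 ± 42.9 CPM for HFD, against 224 ± 52.4 for CD, and Ewsr1 224 ± 37.3 and 188 ± 20.4.

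RNase P and RNase MRP share most of their protein subunits. Of 12 listed, 9 were tested, 5 of them positive and 4 negative, with a median of 0.07 that was -0.02 without HFD 4 and HFD 8 and -0.15 with library numbers as a block. Pop5 had 38.0 ± 22.1 CPM for HFD, against 44.8 ± 9.74 for CD, and Rpp30 18.9 ± 11.5 and 16.2 ± 7.46 (n = 8 each, SD). Of 5 tested genes of tRNA end processing, 3 were negative, with a median of -0.10 that was -0.05 without HFD 4 and HFD 8. The CCA-adding enzyme gene Trnt1 had 39.98 ± 11.4 CPM for HFD, against 33.5 ± 11.1 for CD, and Hsd17b10, a subunit of mitochondrial RNase P, 17.7 ± 10.04 and 25.1 ± 14.3.

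None of the genes for proteins of snoRNA particles passed the test. Of 10 tested genes for box C/D particles, 6 were positive and 4 negative, with a median of 0.02 that was -0.04 with upper quartile scaling and -0.07 without HFD 4 and HFD 8. Nop58, a core protein, had 78.3 ± 46.7 CPM for HFD, against 59.4 ± 9.41 for CD (n = 8 each, SD), and the assembly factor Ruvbl2 55.5 ± 46.2 and 33.4 ± 6.21. Their log2 fold changes of 0.39 and 0.73 were -0.05 and -0.07 without HFD 4 and HFD 8. Of 5 tested genes for box H/ACA particles, 3 were positive, with a median of 0.07 that was 0.02 without HFD 4 and HFD 8. Nop10 was at 0.07 in log2 fold change, with 86.4 ± 12.5 CPM for HFD, against 82.2 ± 17.1 for CD, while Nhp2 had 33.7 ± 9.24 and 42.1 ± 5.07. Of 19 other tested host genes of snoRNAs, 12 were negative and 7 positive, with a median of -0.13 that was 0.07 without HFD 4 and HFD 8. The translation factor gene Eef2 had 1353 ± 273 CPM for HFD, against 1558 ± 330.2 for CD, and the nucleolin gene Ncl 438 ± 147 and 569 ± 112.

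Nonsense-mediated decay removes spliced host transcripts such as Gas5. Of its 10 tested factors, 7 were positive and 3 negative, with a median of 0.16 that was -0.16 without HFD 4 and HFD 8. The kinase gene Smg1 had 179 ± 19.7 CPM for HFD, against 174 ± 26.7 for CD (n = 8 each, SD). Of 13 other tested long noncoding RNAs, 8 were positive and 5 negative, with a median of 0.01 that was -0.0064 with upper quartile scaling, -0.05 with library numbers as a block and 0.14 without HFD 4 and HFD 8. Kcnq1ot1, an imprinted antisense RNA, had 152 ± 56.6 CPM for HFD, against 160.0 ± 66.7 for CD, and Tug1 105 ± 24.7 and 109.5 ± 17.4. Without strand, reads of Kcnq1ot1 cannot be told from those of Kcnq1. Xist, which coats the inactive X chromosome of female cells, did not pass the filter, with 33 counts over HFD and 19 over CD libraries. Of 11 other structural RNAs with a row in the table, none of the small RNAs passed. The 1 that did was Rn45s, the ribosomal RNA precursor, which is not a small RNA. Its gene has many near-identical copies, so its count is uncertain, and it had 114747 ± 50220 CPM for HFD, against 138788 ± 84169 for CD. The telomerase RNA Terc had 0 counts over the HFD libraries and 1 over the CD libraries, and the vault RNA Vaultrc5 0 and 5.

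**Figure D4:**
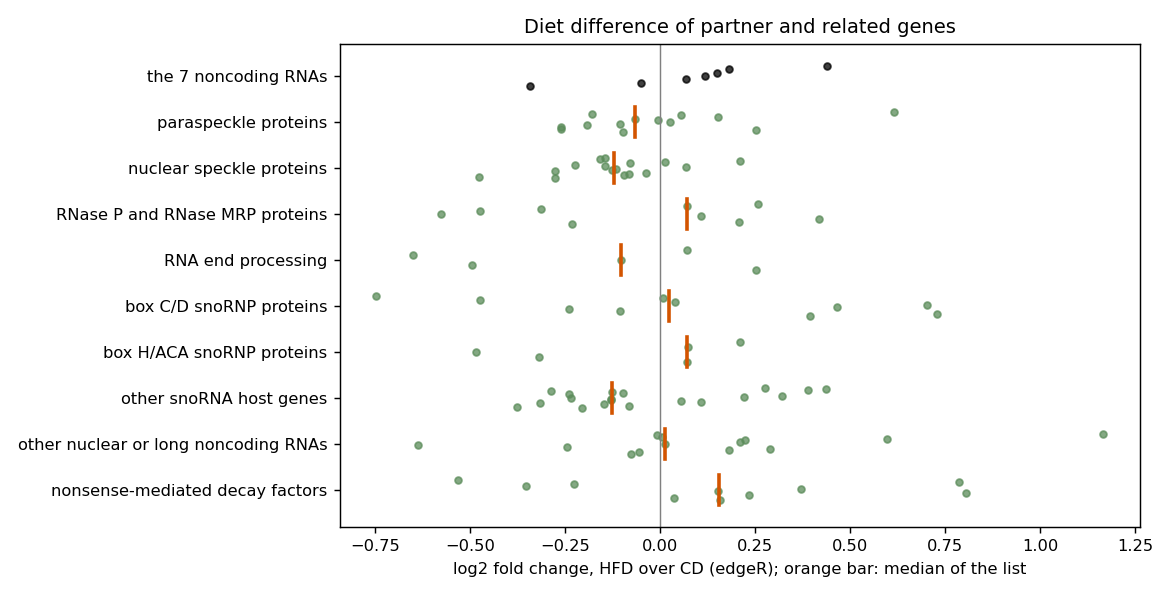
Log2 fold change, HFD over CD, from edgeR (x axis) of the 7 RNAs (black) and of each tested gene of 9 lists (green), with the median of each list as an orange bar. Medians lie between -0.13 for other snoRNA host genes and 0.16 for nonsense-mediated decay factors, and no gene shown passed the threshold.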

How the data were processed

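RNA of motile sperm was sequenced in 16 libraries, 8 per diet. Per the labels' protocols, 2 ng of RNA was amplified into cDNA and 250 ng of cDNA entered each library. As deposited by the authors, the values are raw read counts for each gene symbol and library. Tools named, without role or order, in the submitters' processing notes are STAR, HTSeq 1.0.0 and DESeq2 1.0.19, and the build is mm10. The 5 summary rows of the counting program were left out of library sizes and tests. Genes held 8.02% to 20.1% of a column, and reads in no annotated feature 58.0% to 76.1%.

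The diet test was edgeR 4.0.16 (R 4.3.3), a robust quasi-likelihood F-test with TMM factors and its default expression filter, with diet as the sole term, two-sided, and Benjamini-Hochberg adjustment over 13149 genes at a threshold of 0.05. Single-gene CPM use TMM-scaled sizes, and marker sums use gene totals. Tested on simulated data for this comparison, with 200 of 13149 genes altered, it called 4 of 50 genes at 2-fold, 32 at 4-fold, 39 at 8-fold and 43 at 16-fold, and 4 unaltered genes. Of the 200 altered genes, 180 passed the filter and were tested, and the rest count as not called. The 56 pairs of libraries of the same diet gave chi-square values of 13.6 to 187 per degree of freedom over genes, and the 64 pairs across diets 11.3 to 274, so no library was counted as a copy of another. The series speaks of 8 mice per diet, so libraries were treated as separate animals.

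The 7 RNAs were fixed by name, and they and the gene lists were chosen with earlier results of these data known. Genes named beside them were, by rule, the 3 most correlated genes of each tested RNA and the 2 tested genes of each list with the highest mean CPM, of which 1 is not reported here. Xist, Terc, Vaultrc5, Znhit3, Smg9 and Apoh fall outside that rule and were chosen with their values known. Alternatives were DESeq2 1.42.0, limma 3.58.1 (voom with quality weights), other scalings and filters, a block, a covariate and libraries left out.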

Additional observations from a re-analysis of the deposited data

How the results depend on the processing

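Of 199 alternative values of the diet differences of the 7 RNAs, 0 passed the threshold, 179 kept their direction and 20 turned it. The count of genes past the threshold was 0 in each alternative except DESeq2, which called 1 gene, and 0 to 0 with single libraries left out. With limma-voom and quality weights the log2 fold change of Neat1 was 0.0498 and that of Rpph1 -0.38. With the log2 ratio of late spermatid to epididymal counts as a covariate, Neat1 was at 0.0465, Rmrp at -0.0400 and Rpph1 at -0.30. Without HFD 4 and HFD 8, Neat1 was at 0.12, Rmrp at -0.19 and Rpph1 at -0.61. The cause of these turns was not tested. With each library left out in turn, log2 fold changes ranged from -0.48 to -0.20 for Malat1, -0.18 to 0.0783 for Neat1, -0.00775 to 0.18 for Gas5, -0.0196 to 0.22 for Snhg1, -0.0415 to 0.35 for Snhg12, -0.0949 to 0.73 for Rmrp and -0.0288 to 0.73 for Rpph1. Without HFD 4 and HFD 8 the SD of log2 CPM of Malat1 was 0.39. Over its short isoform Neat1 stood at 48.2 CPM per kb in HFD and 49.97 in CD.

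Library numbers did not pair the diets: the same-numbered libraries' deviations correlated at r = -0.40 to 0.61, and 2 of 8 HFD libraries correlated best with their own number. With the replicate block 0 genes passed, 314 had an unadjusted p under 0.05 against 1482 without it, and the log2 fold changes were -0.40 for Malat1, -0.05 for Neat1, 0.07 for Gas5, 0.05 for Snhg1, 0.05 for Snhg12, 0.58 for Rmrp and 0.37 for Rpph1. Genes with an unadjusted p under 0.05 numbered 500 with limma-voom, 521 with the covariate, 292 without HFD 4 and HFD 8, 2258 with DESeq2 and 2518 with no low-count filter. None of the 10 related lists gained a gene past the threshold in 210 alternative counts. Dixon's criterion, applied to the 8 values of each RNA in each diet, 14 sets in all, picked out 0 values. Rmrp, Rpph1 and Snhg12 rest on 1 to 132 counts per library, and how far depth limits their comparisons was not tested.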
